A study of Rattus norvegicus with 134 samples.

Results

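The liver and kidney microRNAs miR-122, miR-192 and miR-194 were described here across heart, kidney and liver of heat-stressed and control rats. The members were all names in the deposited table with the stem rno-miR-122, rno-miR-192, rno-miR-194 or rno-miR-215, with any arm or copy number. The rule found 7 of the 185 names: rno-miR-122, rno-miR-122-5p and rno-miR-122-3p, rno-miR-192 and rno-miR-192-5p, and rno-miR-194-5p and rno-miR-194-2. No name of the stem miR-215 was in the table. Names ending in 5p or 3p are mature arms, and the names without an arm are not defined in the sources used here.

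Small RNA libraries were made from total RNA of Fischer 344 rats, and each value is log2(CPM + 1), where CPM is the reads of a name scaled to a common library total. Heat-stressed rats were warmed in an incubator at 37.0 °C up to a core temperature of 41.8 °C (Tc,max), and organs were taken at that point or after 24 or 48 h of recovery. By the labels, all rats were housed at 22.0 °C. Control rats were sampled at matching times and were, by the labels, never put in the incubator, whereas the study's methods place controls in the incubator at room temperature. Liver at Tc,max had 6 heat-stressed and 6 control rats. Kidney had 5 heat-stressed and 5 control rats at Tc,max, 6 and 4 at 24 h, and 4 and 5 at 48 h. Heart had 6 heat-stressed and 5 control rats at Tc,max, 6 and 6 at 24 h, and 6 and 6 at 48 h. A further liver library, of a control rat at 24 h, entered no comparison. Histology showed organ injury in some of the heat-stressed rats at the last time point, and the labels do not say which, so they stand here as 1 group. Age was not given in the sources used here, and each tissue was sequenced in a lane of its own, so tissue and lane cannot be told apart.

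Total reads per library were 126700 to 379444 in liver, 355221 to 2224069 in kidney and 126279 to 879244 in heart. A value resting on 3 reads or fewer is called near the floor below, and such floors cover counting error only, whereas the 95% intervals given below come from limma and reflect the spread between libraries. Of the marker lists, striated muscle names summed to 28323 to 121478 CPM in 34 of the 35 hearts, miR-200 family names of epithelium to 5151 to 9225 CPM in the kidneys, and miR-122 names to 13879 to 21727 CPM in the livers. The miR-122 names are members themselves, so for liver this is no check apart from the levels reported below. The libraries of rat 307, heat-stressed and sampled at 48 h, stood apart in both organs. The library labelled heart of rat 307 had 323 CPM of the muscle names and 8550 CPM of the epithelium names, against 31.8 to 170 CPM of the epithelium names in the other hearts, so it goes against its label. In the kidney library of rat 307 the epithelium names summed to 9225 CPM, but they went different ways. Above every other kidney were rno-miR-429 (11.93) and rno-miR-200b-3p (11.87), and rno-miR-200a lay within the range. Below every other kidney were rno-miR-141-3p (5.47, against 8.82 at the lowest) and rno-miR-200a-3p (9.38, against 9.62). Of the 185 names, 103 lay below and 34 above every other kidney library. Differences of the members at 48 h are given with and without them where they turn on these libraries.

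MicroRNAs are short RNAs that guide Argonaute proteins to messenger RNAs, mostly through pairing of the seed, bases 2 to 8 of the mature strand. In mammals miR-122 is the characteristic microRNA of hepatocytes, where it acts in lipid metabolism, and its level in plasma is used as a sign of liver damage. The miRNAs miR-192 and miR-194 are made together from clustered genes, are abundant in liver, kidney and intestinal epithelium, and have been studied in kidney fibrosis and, for miR-192 and miR-215, in the response to p53.

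The mature sequences show which members share a seed and so could share targets. All 4 members named by arm matched a RefSeq entry on the rat build GRCr8, and capitals mark the seed.
rno-miR-122-5p: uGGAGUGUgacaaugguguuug
rno-miR-122-3p: aACGCCAUcaucacacuaa
rno-miR-192-5p: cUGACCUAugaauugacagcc
rno-miR-215: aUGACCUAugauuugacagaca
rno-miR-194-5p: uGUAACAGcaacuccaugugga
The seed of miR-192-5p is that of miR-215, which was not in the table, and 18 of the first 21 positions of these strands are alike. The other members have seeds of their own. A seed shared by miR-192-5p and miR-215 is a property of the sequences and was not measured here.

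The genes lie in 3 places on GRCr8. Mir194-2 (chr1:212994024-212994108, plus strand) and Mir192 (chr1:212994209-212994318, plus strand) are 100 bases apart, in no annotated gene, with Atg2a 2518 bases from Mir194-2 and Ehd1 14794 bases from Mir192. Mir194-1 (chr13:99382716-99382798, plus strand) and Mir215 (chr13:99382990-99383086, plus strand) are 191 bases apart and lie within the span of Iars2. Both miR-194 hairpins hold the same miR-194-5p strand, shown in capitals in the hairpins below together with the 3p arm where RefSeq annotates it, so reads of miR-194-5p cannot be given to 1 gene.
Mir194-2: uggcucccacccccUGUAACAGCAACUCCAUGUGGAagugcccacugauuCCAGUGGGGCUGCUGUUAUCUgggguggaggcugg
Mir194-1: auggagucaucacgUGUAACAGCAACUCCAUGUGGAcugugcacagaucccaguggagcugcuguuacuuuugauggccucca
Mir122 (chr18:61028817-61028901, plus strand) lies within the uncharacterised gene LOC134482951. The hairpin of Mir3591 (chr18:61028804-61028912) overlaps it on the minus strand and holds the reverse complement of miR-122-5p. Whether counting used strand is not stated, so reads of miR-122 and miR-3591 cannot be told apart.

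The miR-122 names were high in liver and near the floor in many libraries of the other organs. The level of rno-miR-122-5p, the guide strand, had a lowest, median and highest log2 value of 12.37, 12.72 and 13.22 in the 13 livers, 0, 4.67 and 7.25 in the 29 kidneys, and 0, 1.43 and 5.47 in the 35 hearts. It was at 0 in 5 kidneys and 14 hearts, and rested on 3 reads or fewer in 9 kidneys and 27 hearts. The liver median corresponded to 6759 CPM, and no liver value overlapped with any kidney or heart value.

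The name rno-miR-122 followed the same order, with 12.86, 13.16 and 13.46 in liver, 0, 4.91 and 7.09 in kidney and 0, 3.01 and 5.90 in heart. The other arm, rno-miR-122-3p, had 9.18, 9.48 and 9.78 in liver, while it rested on 3 reads or fewer in 28 of 29 kidneys and was at 0 in 33 of 35 hearts. In liver the reads of the 5p arm were 9.90 times those of the 3p arm (median of 13 libraries).

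The miR-192 names were high in both liver and kidney. The level of rno-miR-192-5p had a lowest, median and highest log2 value of 17.09, 17.24 and 17.33 in liver, 15.35, 15.95 and 16.33 in the 28 kidneys other than that of rat 307, and 7.70, 8.95 and 11.32 in heart. It made up 13.9% to 16.5% of the reads of a liver library and ranked 2 of 185 names in all 13 livers, and it made up 4.18% to 8.22% of the reads of these 28 kidneys, with a median rank of 4. Its median rank in heart was 93. The kidney of rat 307 had 12.32, between the other kidneys and the hearts.

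The level of rno-miR-194-5p had the same order of organs at a lower level, with 12.10, 12.25 and 12.74 in liver, 9.98, 10.74 and 11.29 in the 28 kidneys and 2.38, 4.53 and 6.55 in heart. The heart values rested on 1 to 30 reads. The kidney of rat 307 had 4.87, within the range of the hearts. The name rno-miR-192 had 14.86, 15.04 and 15.25 in liver, 12.72, 13.27 and 13.65 in the 28 kidneys and 5.58, 6.72 and 8.65 in heart. The name rno-miR-194-2 had 8.80, 9.19 and 10.14 in liver, 7.42, 8.18 and 8.73 in the 28 kidneys and 0, 2.62 and 4.00 in heart, with 3 reads or fewer in 21 of 35 hearts. Liver and kidney did not overlap in rno-miR-192, rno-miR-192-5p, rno-miR-194-5p or rno-miR-194-2. The 7 names together took 19.9% to 22.5% of the counts assigned to names in liver, 0.638% to 9.81% in kidney and 0.0273% to 0.317% in heart.

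**Figure D1:**
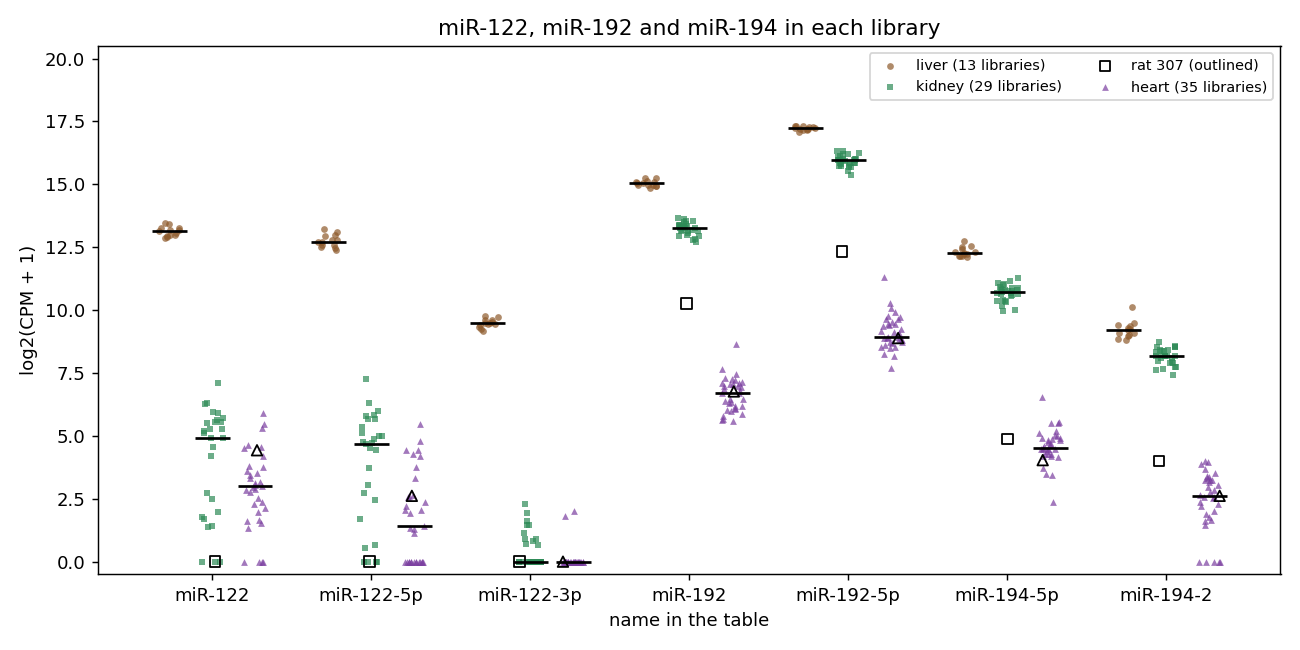
Level of each of the 7 names (x axis) in every library as log2(CPM + 1) (y axis), with liver, kidney and heart side by side, the median as a bar and the libraries of rat 307 outlined. The miR-122 names are high in liver alone (medians of 13.16, 12.72 and 9.48), whereas the miR-192 and miR-194 names are high in liver and kidney, and the kidney of rat 307 lies below the other kidneys.

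Tissue differences were tested with limma against a minimum fold change, with all names and all libraries in 1 fit, and with p-values adjusted over the 185 names. Liver was higher than heart for 7 of 7 members in heat-stressed rats at Tc,max, where 66.5% of all names differed, and for 7 of 7 in control rats, where 65.9% did. Liver was higher than kidney for 6 of 7 members in heat-stressed rats, where 53% of names differed, and for 6 of 7 in control rats, where 58.9% did. Kidney was higher than heart for 5 of 7 members in heat-stressed rats at Tc,max, where 41.1% of names differed, 5 of 7 at 24 h (41.6%) and 4 of 7 at 48 h (44.9%, or 74 of the 185 names without rat 307). In control rats 4 of 7 members were higher in kidney at Tc,max (40%), 24 h (41.1%) and 48 h (44.3%). These background shares count names that differed in either direction, and all 52 member calls among 70 tests were in the direction of the organ named first. Most kidney against heart counts of the members thus stand beside a background in which differences between organs were common. Of the 7 members, 6 reached 5 reads in every library of some kidney condition, and 3 did so in heart. A member short of this in an organ entered the fit only through organs where it was higher. The direction of its difference was therefore not free of the filter.

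The largest differences among the members were those of miR-122. The level of rno-miR-122-5p was higher in liver than in kidney by 8.76 log2 units in heat-stressed and 10.30 in control rats, and higher in liver than in heart by 11.68 in heat-stressed and 12.28 in control rats. These sizes depend on the pseudocount, since many kidney and heart values were near the floor. Between kidney and heart, rno-miR-122-5p was higher in kidney by 2.92 at Tc,max (adjusted p = 0.0210) and 2.81 at 24 h (adjusted p = 0.0192) in heat-stressed rats, calls that were lost on the recovered reads with limma's voom (adjusted p = 0.103 and 0.0825) and lay near the counting floor. They were also lost without the Tc,max kidney of rat 280, 281 or 282 (differences of 2.32, 2.61 and 2.67), or without the 24 h kidney of rat 297 or 298 (2.43 and 2.50). The difference was -0.63 at 48 h in heat-stressed rats, or -0.05 without rat 307, and 1.98, 1.95 and 2.35 in control rats at Tc,max, 24 h and 48 h, none of which passed the test. The control difference at 48 h passed without the kidney of rat 314 (3.49, adjusted p = 0.00444) or the heart of rat 315 (2.86, adjusted p = 0.0255) and with the rat as a block (2.42, adjusted p = 0.0354), and that at 24 h passed when only the 2 groups compared were fitted (adjusted p = 0.0325).

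For miR-192 and miR-194 the gap between kidney and heart was larger than that between liver and kidney. Kidney exceeded heart in rno-miR-192-5p by 6.12 to 7.07 log2 units and in rno-miR-194-5p by 4.49 to 6.61, over the 6 combinations of treatment and time. The lower end came from 48 h after heating, where the value without rat 307 was 7.02 for rno-miR-192-5p and 5.78 for rno-miR-194-5p.

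Liver exceeded kidney in rno-miR-192-5p by 1.40 in heat-stressed rats (adjusted p = 0.00462) and 1.06 in control rats (95% interval 0.34 to 1.79, adjusted p = 0.0398). The control call was lost without the liver of rat 288 or 289 or the kidney of rat 289, 293 or 294, with adjusted p up to 0.0723 and a difference of 1.01 to 1.06. Liver exceeded kidney in rno-miR-194-5p by 1.79 in heat-stressed rats (adjusted p = 0.00310) and 1.49 in control rats (adjusted p = 0.0145). For rno-miR-194-2 the difference was 1.15 in heat-stressed rats (adjusted p = 0.103) and 0.64 in control rats (95% interval -0.39 to 1.67, adjusted p = 0.396). In this fit it was the only member for which liver and kidney were not called different, and that depended on the fit. The heat-stressed difference passed with median-ratio scaling in place of CPM (1.53, adjusted p = 0.0128) and with voom (1.14, adjusted p = 0.0148). It also passed with log2(CPM + 5) (adjusted p = 0.0213), no fold cutoff (0.0460) and only the compared groups fitted (2.4e-05). The control difference passed with only the compared groups fitted (adjusted p = 0.0212). Without the libraries of rat 307, which widen the spread, the heat-stressed difference of 1.15 passed (adjusted p = 0.0494) and the control call of rno-miR-192-5p had adjusted p = 0.00807.

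The effect of heat was tested within each organ and time with limma, over 161 names in liver, 175 in kidney and 163 in heart that had 5 reads or more in every library of some condition. This filter kept 7 members in liver, 6 in kidney and 3 in heart. No member passed the test, in 0 of 34 comparisons, and none did with voom. At an unadjusted p under 0.05, 2 of the 34 passed, rno-miR-122 and rno-miR-122-5p in kidney at 48 h. In kidney both met the filter through control groups alone. These were 24 and 48 h for rno-miR-122 (lowest 53 and 5 reads) and 24 h for rno-miR-122-5p (lowest 34 reads). Every heat-stressed kidney group held a library with 1 read or fewer of each, so their lower values after heat are not independent of the filter. Among all names, 0% were called in liver and in kidney at each time and in heart at Tc,max and 24 h, and 1.23%, 2 of 163 names, in heart at 48 h. That count ranged from 0 to 9 when 1 library was left out, with 0 without heat-stressed rat 306 or 308, 1 without control rat 311, 4 without heat-stressed rat 309 and 9 without heat-stressed rat 304. At an unadjusted p under 0.05 the counts over all names were 2 in liver, 0, 0 and 29 in kidney at Tc,max, 24 h and 48 h, and 3, 0 and 18 in heart at those times.

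In liver at Tc,max, rno-miR-122-5p had a lowest, median and highest log2 value of 12.37, 12.61 and 12.96 in heat-stressed rats, against 12.57, 12.79 and 13.10 in control rats. The groups overlapped, and the difference was -0.18 (95% interval -0.41 to 0.05, limma adjusted p = 0.99998). The level of rno-miR-192-5p was 17.21, 17.27 and 17.33 in heat-stressed rats, against 17.15, 17.19 and 17.30 in control rats. It differed by 0.06 (95% interval -0.05 to 0.17), and 5 of 6 heat-stressed livers exceeded the mean of the controls. The level of rno-miR-194-5p was 12.13, 12.27 and 12.54 in heat-stressed rats, against 12.10, 12.24 and 12.52 in control rats, a difference of 0.04 (95% interval -0.15 to 0.23). These intervals are narrow, since the replicate SD in liver was at most 0.216 for these 3 arms.

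In kidney at Tc,max the miR-192 and miR-194 names lay slightly lower in heat-stressed rats. The level of rno-miR-192-5p was 15.69, 15.98, 15.98, 15.71 and 15.99 in heat-stressed rats, against 16.14, 16.26, 16.32, 15.92 and 16.10 in control rats. All 5 heat-stressed kidneys lay under the mean of the controls and 2 under every control. The limma difference was -0.28 (95% interval -1.14 to 0.58, adjusted p = 0.999), and a two-sided exact permutation of the rats for this name gave p = 0.0317, adjusted p = 0.494 over the 48 such tests run.

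The level of rno-miR-194-5p was 10.16, 10.61, 10.64, 10.38 and 10.77 in heat-stressed rats, against 10.73, 10.98, 10.79, 10.63 and 10.69 in control rats. Of the heat-stressed rats, 3 lay below every control, and the difference was -0.25 (95% interval -1.58 to 1.08, exact permutation p = 0.0714). The level of rno-miR-194-2 differed by -0.37, with 4 of 5 heat-stressed rats below every control (exact permutation p = 0.0159, adjusted p = 0.494). Total reads moved with treatment here, with a median of 595986 in the heat-stressed kidneys and 1137894 in the control kidneys, and their part in the result was not tested. The wide limma intervals share a spread estimate with the kidney of rat 307, and the adjusted p-values were 0.99998 without it.

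The level of rno-miR-122 in kidney at Tc,max ran the other way and was scattered. It was 6.26, 5.50, 5.91, 2.72 and 1.42 in heat-stressed rats, against 1.98, 1.38, 4.22, 1.70 and 5.27 in control rats. The difference of 1.45 had a 95% interval of -1.05 to 3.96, and 3 heat-stressed rats lay above every control. The difference in total reads between these groups, given above, applies here too, and its part was not tested.

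In kidney at 24 h, rno-miR-192-5p had 15.72, 15.85 and 16.02 as its lowest, median and highest value in heat-stressed rats, against 15.84, 16.01, 16.33 and 15.95 in control rats. The groups overlapped, and the difference was -0.16 (95% interval -1.04 to 0.72). The level of rno-miR-194-5p differed by -0.18 (95% interval -1.53 to 1.18) and that of rno-miR-122-5p by -1.14 (95% interval -3.88 to 1.60), each with adjusted p = 0.999. Without the heat-stressed kidney of rat 302 the difference of rno-miR-122-5p was -0.43, the smallest when 1 library was left out, and the largest was -1.52.

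The level of rno-miR-122 in kidney at 24 h had a lowest, median and highest value of 0, 5.02 and 6.31 in heat-stressed rats, against 5.27, 5.67 and 5.96 in control rats. Of the 6 heat-stressed kidneys, 5 lay below every control and 1 above every control. The difference of -1.64 had a 95% interval of -4.19 to 0.91 and did not pass (limma adjusted p = 0.999, exact permutation p = 0.205). Median total reads were 1586770 in these heat-stressed kidneys and 1123194 in the control kidneys, and their part was not tested.

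In kidney at 48 h the differences were larger, and different libraries carried those of miR-122 and those of miR-192 and miR-194. The level of rno-miR-122 was 4.91, 0, 0 and 0 in heat-stressed rats, against 7.09, 5.54, 5.56, 1.80 and 4.54 in control rats. Of the 4 heat-stressed rats, 3 had no read of it and lay below every control, and rat 305 lay within the control range. The limma difference was -3.68 (95% interval -6.33 to -1.03), with adjusted p = 0.260 and an exact permutation p = 0.0556, where the design allows 0.00794 at the smallest. Without rat 307 it was -3.27 (exact permutation p = 0.143, with 0.0179 the smallest that 3 against 5 rats allow).

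The arm rno-miR-122-5p had the same pattern, with 4.74, 0, 0 and 0.65 in heat-stressed rats, against 7.25, 5.34, 5.79, 0 and 4.45 in control rats. Here 1 control rat also had no read, so the groups overlapped, and the difference was -3.22 (95% interval -6.07 to -0.37, limma adjusted p = 0.260), or -2.77 without rat 307. In bulk tissue, less RNA per cell and fewer cells carrying it cannot be told apart, and the kidney values of miR-122 rest on at most 158 reads of rno-miR-122-5p. The 5 names of the blood list had a median difference of -1.58 in the same comparison, with 0 of 5 called, against a median of -0.43 over all 175 names. Without rat 307 these medians were -0.32 for the blood names and -0.0095 over all names. In the 28 kidneys other than that of rat 307 these blood names summed to 753 to 2155 CPM, and to 210 CPM in rat 307. Their part in the result was not tested.

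The level of rno-miR-192-5p in kidney at 48 h was 16.19, 15.78, 12.32 and 15.95 in heat-stressed rats, against 15.35, 15.81, 16.22, 15.54 and 15.70 in control rats. Only rat 307, at 12.32, lay outside the control range on the low side. The difference was -0.66 (95% interval -1.58 to 0.25, adjusted p = 0.470) with this library and 0.25 without it (exact permutation p = 0.286).

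The level of rno-miR-194-5p was 10.87, 9.98, 4.87 and 10.81 in heat-stressed rats, against 10.01, 10.68, 10.58, 10.33 and 10.37 in control rats. With 4.87, rat 307 had 15 reads of it, against 1377 to 3163 in the other 3 heat-stressed kidneys. The difference was -1.26 (95% interval -2.67 to 0.15, adjusted p = 0.308) with rat 307 and 0.16 without it (exact permutation p = 0.554), so its sign was set by that 1 library. With median-ratio scaling in place of CPM, and rat 307 kept, the differences were -0.29 for rno-miR-192-5p and -0.90 for rno-miR-194-5p.

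The 5 epithelium names had a median difference of 0.03 and the 4 names enriched in kidney one of 0.04 in the same comparison, with 0 called in each list, and without rat 307 these medians were -0.13 and -0.089. Of 13 names linked with kidney injury, none was called in kidney at any time, and their median difference at 48 h was -0.50, or -0.0095 without rat 307. Of 13 names linked with kidney fibrosis, among them rno-miR-192 and rno-miR-192-5p, none was called either, with a median of -0.31, or -0.0064 without rat 307. In heart at 48 h, 1 name of the injury list and 1 of the fibrosis list were higher in heat-stressed rats, beside 1.23% of all names, and no name was called there when only the 2 groups compared were fitted. No member was called.

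**Figure D2:**
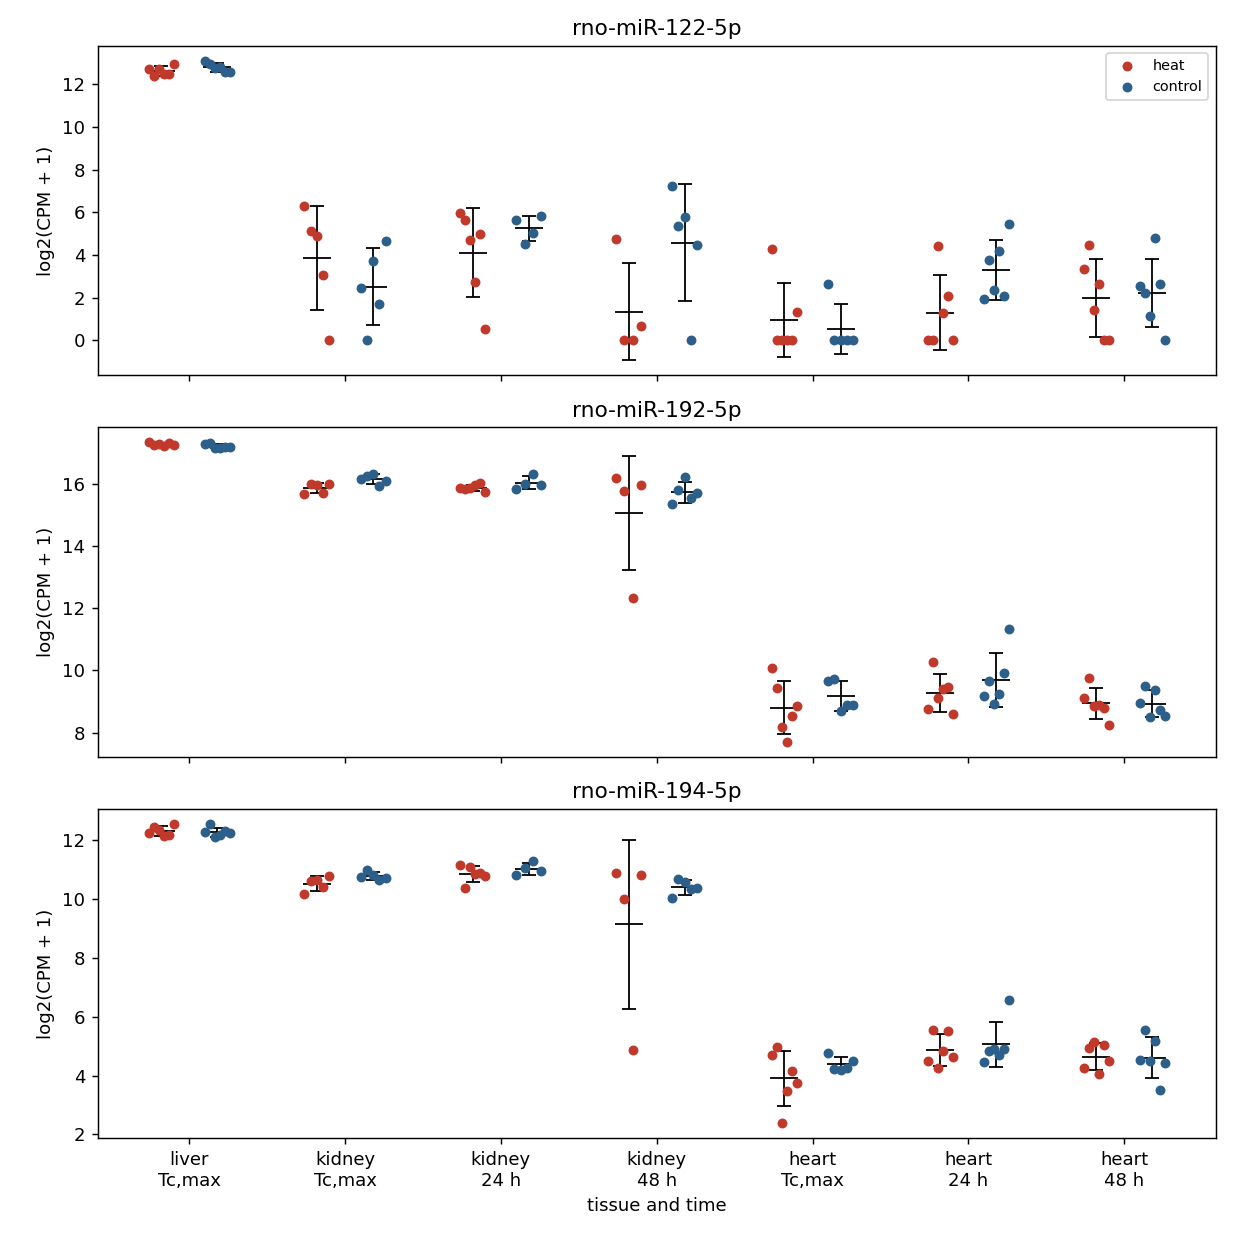
Level of rno-miR-122-5p, rno-miR-192-5p and rno-miR-194-5p as log2(CPM + 1) (y axes) in each library of heat-stressed and control rats by organ and time (x axis), with bars for the mean and SD. The kidney of rat 307 at 48 h, at 12.32 for rno-miR-192-5p and 4.87 for rno-miR-194-5p, lies apart from the other heat-stressed kidneys.

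In heart, where the members were low, limma tested only rno-miR-192, rno-miR-192-5p and rno-miR-194-5p, and no difference passed the test. The miR-122 names and rno-miR-194-2 did not meet the filter in heart. The differences of rno-miR-194-2 were 0.21 at Tc,max, -0.26 at 24 h and -0.99 at 48 h, and those of miR-122 are given last. At Tc,max the median of rno-miR-192-5p was 8.69 in heat-stressed rats and 8.89 in control rats, with a difference of -0.37 (95% interval -1.16 to 0.41). The differences at 24 and 48 h were -0.43 and 0.01, and that at 24 h was -0.11 without control rat 325. The heart of control rat 325 at 24 h was high in several members, with 11.32 in rno-miR-192-5p, 6.55 in rno-miR-194-5p and 5.90 in rno-miR-122. The differences of rno-miR-194-5p were -0.48 (95% interval -1.35 to 0.39) at Tc,max, -0.18 at 24 h and 0.03 at 48 h, and that at 24 h was 0.12 without rat 325. These values rested on at most 30 reads per library. Without the library labelled heart of rat 307 the differences at 48 h were 0.02 for rno-miR-192-5p and 0.16 for rno-miR-194-5p.

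**Figure D3:**
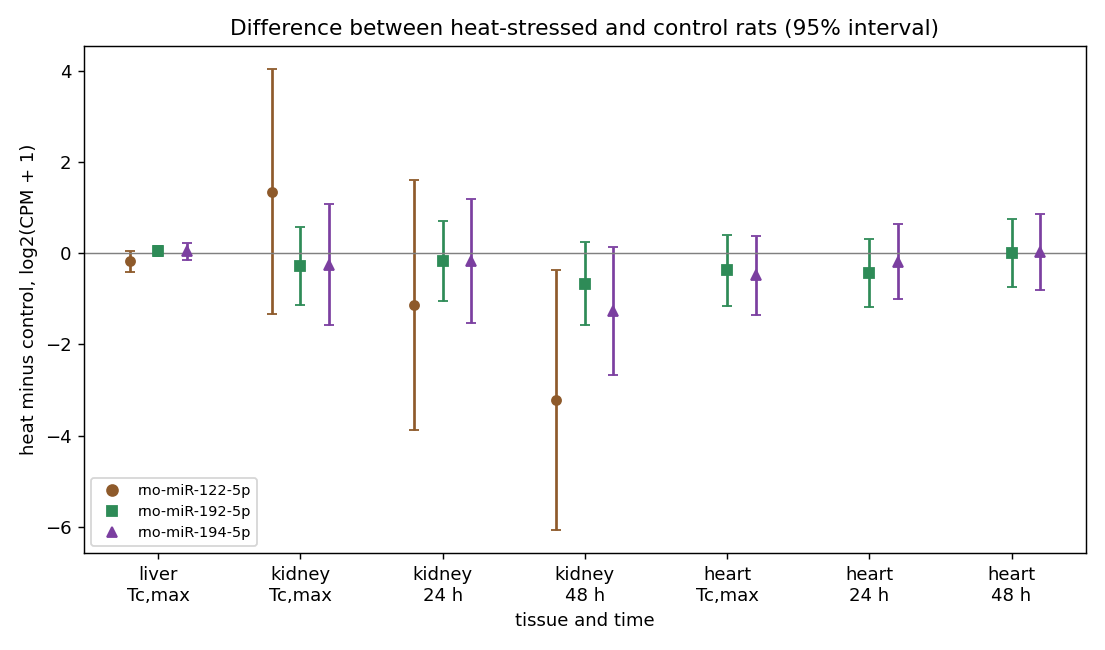
Difference between heat-stressed and control rats in log2(CPM + 1) (y axis) by organ and time (x axis) for the 3 main arms, as points with 95% intervals from limma. The liver intervals are narrow and include 0, and the interval of rno-miR-122-5p in kidney at 48 h (-6.07 to -0.37) is the only one that leaves out 0, without passing the adjusted test.

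Whether heat acted differently between organs was tested as an interaction in the fit of all organs. None of the 7 members passed in any of the 5 contrasts, 0 of 35 with 1 at an unadjusted p under 0.05, and voom also called 0. Over all 185 names 0% were called in each contrast (kidney against heart at Tc,max, 24 h and 48 h, liver against heart and liver against kidney), with 2, 0, 44, 4 and 1 names at an unadjusted p under 0.05. For kidney against heart at 48 h the count called ranged from 0 to 11 when 1 library was left out, with 11 without the kidney of heat-stressed rat 305, 4 without that of rat 309, 1 without that of rat 306, and 6 and 2 without the heart of heat-stressed rats 304 and 309. At 48 h the effect on rno-miR-122-5p was 2.98 lower in kidney than in heart (interaction -2.98, adjusted p = 0.204), and on rno-miR-194-5p 1.30 lower (interaction -1.30, adjusted p = 0.236). Without rat 307 these interactions were -2.40 for rno-miR-122-5p and 0.0011 for rno-miR-194-5p.

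Change over the 3 times was tested with a moderated F-test from limma, separately in heat-stressed and control rats. No member passed, in 0 of 18 tests, with the smallest adjusted p = 0.136, and voom called 0. The share of all names called was 2.86% in heat-stressed kidney, 0% in control kidney, 12.9% in heat-stressed heart and 4.91% in control heart. At an unadjusted p under 0.05 were 62 of 175 names in heat-stressed kidney, 3 members among them (rno-miR-122, rno-miR-194-5p and rno-miR-194-2), 8 in control kidney, 49 of 163 in heat-stressed heart, and 19 in control heart, 1 member among them (rno-miR-192).

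Leaving out rat 307, whose spread enters the whole kidney fit, changed this for the control kidneys, in which 18 names were then called. Among them were rno-miR-192-5p and rno-miR-194-5p (adjusted p = 0.0460 each) and rno-miR-194-2 (adjusted p = 0.0415). The control means of rno-miR-194-5p were 10.76 at Tc,max, 11.02 at 24 h and 10.39 at 48 h, and those of rno-miR-192-5p were 16.15, 16.03 and 15.72. Without the kidney of rat 305 at 48 h, 5 members were called over time in heat-stressed kidney, rno-miR-122-5p (adjusted p = 0.0441), rno-miR-192-5p (0.0477) and rno-miR-194-5p (0.0317) among them, and without that of rat 309 at 48 h 2 members were called, among them rno-miR-194-5p (0.0300). Of all 175 names 93 were called without rat 305 and 85 without rat 309, and the count ranged from 0 to 93 when 1 library was left out. Without rat 307 no member was called in heat-stressed kidney (rno-miR-194-5p adjusted p = 0.210), while 43 of all names were.

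The ratios between names of a stem are given by organ as a description, with no test. The reads of rno-miR-192-5p were 4.64 times those of rno-miR-192 in liver (median, range 3.97 to 5.02) and 6.42 times in the 28 kidneys (5.33 to 7.55), so the ranges did not overlap, and the kidney of rat 307 had 4.17. The reads of rno-miR-194-5p were 8.92 times those of rno-miR-194-2 in liver, 5.75 times in the 28 kidneys, and 1.88 times in rat 307. In heart, 14 libraries had over 3 reads of both names, with a median ratio of 2.89.

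Between families the ratio of rno-miR-192-5p to rno-miR-194-5p reads was 31.2 in liver, 38.9 in the 28 kidneys, 23.7 in the 33 hearts with over 3 reads of both and 181 in the kidney of rat 307. Both miR-192-5p and miR-194-5p were low in that kidney, and miR-194-5p was lower relative to miR-192-5p than in any other library. The ratio of rno-miR-122-5p to rno-miR-122 was 0.782 in liver, 0.879 in the 20 kidneys and 0.778 in the 8 hearts with over 3 reads of both. The name rno-miR-3591, of the hairpin on the opposite strand, had 1.02 times the reads of rno-miR-122 in liver (range 1.02 to 1.04) and 1.03 times in kidney, and in heart the median ratio was 1. Its read number was identical to that of rno-miR-122 in 13 of 29 kidneys and 32 of 35 hearts, and 25 to 167 reads apart in the livers.

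Relations between organs of the same rat were computed on deviations from the group mean, so that tissue, treatment and time were taken out, with 24 relations in the family and permutation tests adjusted over them. In heart and kidney of the same rat, rno-miR-122 moved together over 27 rats (r = 0.64, adjusted p = 0.00252, rho = 0.59, adjusted p = 0.0116). Without the 2 rats farthest from the median heart value r was 0.55, and without rat 307 it was 0.68. Within times r was 0.66 at Tc,max (9 rats), 0.69 at 24 h (10 rats) and 0.61 at 48 h (8 rats). Many of these values rested on few reads. As a description with no test, the summed blood names had r = 0.009 between heart and kidney. Against rno-miR-122 itself they had r = 0.17 in heart and 0.04 in kidney. With the liver of the same rat at Tc,max, rno-miR-122 had r = -0.20 in heart (11 rats, adjusted p = 0.689). In kidney it had r = 0.01 with the liver (10 rats, adjusted p = 0.974). What lay behind the relation of rno-miR-122 between heart and kidney was not tested.

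Neither rno-miR-192-5p nor rno-miR-194-5p showed this between heart and kidney (r = 0.04, adjusted p = 0.941, rho = 0.05, adjusted p = 0.990, and r = 0.18, adjusted p = 0.518, rho = 0.03, adjusted p = 0.990, with r = -0.24 for rno-miR-194-5p without rat 307). Within an organ, rno-miR-192-5p and rno-miR-194-5p deviated together in kidney. With rat 307 r was 0.98 over 29 libraries, and without it r was 0.68 (adjusted p = 0.000400), rho was 0.80 (adjusted p = 0.000160) and r without the 2 libraries farthest from the median was 0.68. They also deviated together in heart (35 libraries, r = 0.72, adjusted p = 8.0e-05, rho = 0.65, adjusted p = 0.000480, and r = 0.61 without the 2 farthest). The relation did not pass in liver (12 libraries, r = 0.36, adjusted p = 0.456, rho = 0.48, adjusted p = 0.344).

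In heart, rno-miR-192-5p also deviated with rno-miR-122 (r = 0.70, adjusted p = 8.0e-05, rho = 0.71, adjusted p = 0.000120, and r = 0.66 without the 2 farthest), while in kidney the relation did not pass (r = 0.20, adjusted p = 0.518, rho = 0.13, adjusted p = 0.837). The level of rno-miR-194-5p in kidney moved with the log2 of total reads by Pearson's r alone (r = 0.50, adjusted p = 0.0210, rho = 0.29, adjusted p = 0.351). Here r was 0.14 without rat 307, so that relation rested on that library. For rno-miR-122 in kidney, r with total reads was -0.28 (adjusted p = 0.380, rho = -0.35, adjusted p = 0.244). Without rat 307, r was -0.41 (adjusted p = 0.127) and rho was -0.46 (adjusted p = 0.0719), which did not pass.

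**Figure D4:**
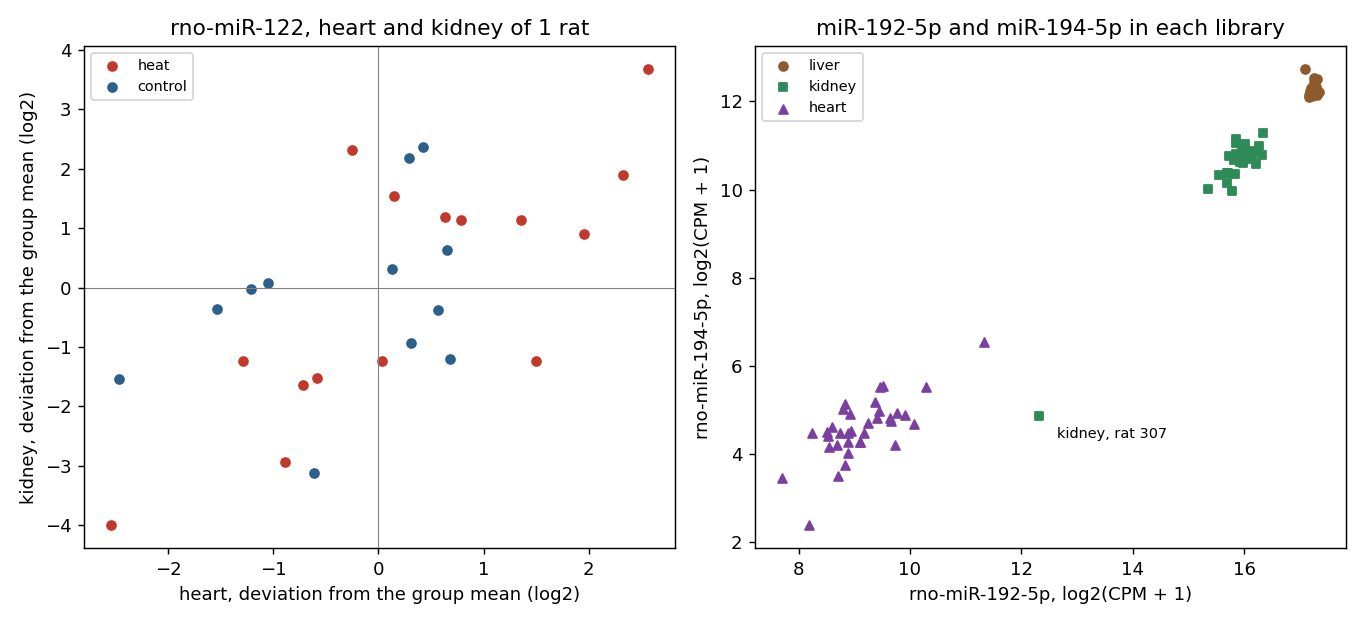
Left, rno-miR-122 in kidney (y axis) against heart (x axis) of the same rat, as deviations from the group mean in log2(CPM + 1). Right, rno-miR-194-5p (y axis) against rno-miR-192-5p (x axis), both in log2(CPM + 1), in liver, kidney and heart libraries, with the kidney of rat 307 (12.32 and 4.87) apart from the other kidneys.

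The names most like rno-miR-194-5p over the means of the 14 groups of at least 4 libraries were rno-miR-192 (r = 0.996), rno-miR-192-5p (0.995), rno-miR-194-2 (0.985), rno-miR-182 (0.975) and rno-miR-203a (0.973). These means span organs, so any name with the same order of organs is like it. Over deviations from the group mean in the 28 kidneys other than rat 307, the names most like it were rno-miR-130a-3p (r = 0.82), rno-miR-301a-3p (0.80), rno-miR-192 (0.79), rno-miR-30b-5p (0.78) and rno-miR-191a-5p (0.78). With rat 307 included the first 5 were rno-miR-130a-3p (0.990), rno-miR-301a-3p (0.988), rno-miR-30b-5p (0.988), rno-miR-26b (0.988) and rno-miR-191a-5p (0.987).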

How the data were processed

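RNA of heart, kidney and liver was isolated with the miRNeasy kit and sequenced after TruSeq small RNA library preparation. Per the study's methods, adapters were trimmed with cutadapt 2.6, and reads were collapsed and matched to miRBase without mismatches. The deposited values are log2(CPM + 1) for 185 names in 77 libraries, of 134 samples in the labels, and no genome was given. Since the deposited unit is log2 values, edgeR, which the authors used, was not run, and limma was used with a fold change of 1.25 and an adjusted p of 0.05.

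Whole reads were recovered from the log2(CPM + 1) values that the authors deposited: 1820 of 1820 low values were whole within 0.05 read, in 77 of 77 libraries. The CPM of the names in the table summed to 98.5% to 99.4% of the library total. Some names, such as rno-miR-3591 and rno-miR-122, may hold the same reads. All shares of reads given here are therefore shares of counts assigned to names, not of distinct reads. The recovered reads were tested with limma's voom as an alternative. Names needed 5 reads in every library of some condition. A pseudocount of 1 was kept. Replicates were checked pair by pair, and none of 172 pairs were copies. Rats are separate animals by their number, and each tissue was fitted without a block, since no rat was both heated and control. Organs of 1 rat share its number, so the tissue comparisons were also fitted with the rat as a block (consensus correlation 0.196).

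The rule for named genes was rno-miR-194-5p and the 5 names most like it, by group means and by kidney deviations. It was fixed with 1 member expected, and the same tests were run for all 7 members found, a choice made after seeing the names in the table, as were the relations of miR-192-5p and miR-122. Members and lists were chosen with earlier results of these data known. Lists for muscle, epithelium, kidney, liver, blood, kidney injury and kidney fibrosis were used as descriptions. Permutation tests were exact, or used 100000 resamples for relations. The alternatives tried are given in the closing section. Scripts were tested on simulated data. Tests used limma 3.58.1 in R 4.3.3 and scipy 1.17.1 with numpy 2.4.6, tables pandas 2.3.3 in Python 3.11.15, and plots matplotlib 3.10.9. Sequences and coordinates are from RefSeq, build GRCr8.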

Additional observations from a re-analysis of the deposited data

Results flagged for a closer look

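Of 93 combinations of name and group of 4 to 10 libraries, 15 had a library apart from the rest of its group by Dixon's test. For separate names with normally spread values, chance would give about 1 in 20. That rate does not hold here, since names of a stem move together. Where all other libraries were at 0, as for rno-miR-122-3p in control hearts, any value above 0 was apart by construction. In kidney at 48 h after heating, rat 307 was apart in rno-miR-192 (10.26), rno-miR-192-5p (12.32), rno-miR-194-5p (4.87) and rno-miR-194-2 (4.00), and rat 305 was apart in rno-miR-122 (4.91) and rno-miR-122-5p (4.74), where the other 3 had 0 to 0.65. In heart of control rats at Tc,max, rat 291 was apart in rno-miR-122 (0) and rno-miR-122-3p (1.80), and rat 288 in rno-miR-122-5p (2.63). Heat-stressed rat 280 was apart at Tc,max in heart rno-miR-122-5p (4.29) and in kidney rno-miR-194-2 (7.75). Control rat 325 at 24 h was apart in heart rno-miR-122-3p (2.03) and rno-miR-194-5p (6.55). Control rat 294 at Tc,max was apart in kidney rno-miR-122-3p (1.60), and heat-stressed rat 284 in liver rno-miR-194-2 (8.80). The values of rno-miR-122-3p and the heart values of rno-miR-122-5p rest on few reads.

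The liver library of a control rat at 24 h, which entered no comparison, lay above every control liver of Tc,max in 5 of the 7 names. It had 13.46 in rno-miR-122, 13.22 in rno-miR-122-5p, 9.78 in rno-miR-122-3p, 12.74 in rno-miR-194-5p and 10.14 in rno-miR-194-2. Its rno-miR-192-5p, at 17.09, lay below every heat-stressed liver (lowest 17.21) and every control liver (lowest 17.15) of Tc,max, and its rno-miR-192, at 14.99, lay within the control range. It was a single library, so no test of time in liver was possible.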

How the results depend on the processing

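Of 1732 results under alternatives, 1650 kept their direction and side of the threshold, 50 turned in direction, 19 newly passed and 13 no longer passed. No member passed the heat test in any of them. With controls of all times pooled, heat differences turned for rno-miR-122-5p (-0.25) and rno-miR-194-5p (0.12 at 24 h) in kidney, and in heart for rno-miR-192-5p (0.0045 at 24 h, -0.33 at 48 h) and rno-miR-194-5p (0.19, -0.038). With median-ratio scaling the heart 48 h values were -0.080 and -0.053. Without rat 307 they were 0.25 and 0.16 in kidney at 48 h. Kidney against heart for rno-miR-122-5p passed at 24 h with only the compared groups (1.95), and at 48 h with log2(CPM + 5) (1.85), no fold cutoff (2.35) and the rat as a block (2.42). With voom it no longer passed in heat-stressed rats (2.54 at Tc,max, 2.48 at 24 h). The interaction turned for rno-miR-192-5p at Tc,max with median-ratio scaling (-0.00015), for rno-miR-194-5p at 24 h with log2(CPM + 5) (-0.0100), voom (-0.0075) and the rat block (-0.059), and at 48 h without rat 307 (0.23 and 0.0011). Without rat 307 the kidney relation of rno-miR-194-5p with heart was -0.24, and 3 members, with rno-miR-192-5p and rno-miR-194-5p at adjusted p = 0.0460, passed over time in control kidney. With mature arms alone, by construction, 2, 2, 2 and 4 members passed in controls (kidney against heart at 3 times, liver against heart) and 3, 3, 2 and 4 in heat-stressed rats.

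Leaving out each library in turn, heat differences ranged from -1.04 to 0.25 (rno-miR-192-5p) and -1.84 to 0.16 (rno-miR-194-5p) in kidney at 48 h, from -0.0040 to 0.096 for rno-miR-194-5p in liver, from -0.31 to 0.12 for it in heart at 24 h, and from -0.16 to 0.15 and -0.19 to 0.22 in heart at 48 h. Kidney against heart for rno-miR-122-5p ranged from 1.68 to 3.49 (control, 48 h), 2.32 to 3.89 (heat, Tc,max) and 2.43 to 3.52 (heat, 24 h), and liver against kidney for rno-miR-192-5p from 1.01 to 1.11. Interactions ranged from -0.13 to 0.35 and -0.076 to 0.44 (Tc,max), -0.056 to 0.47 and -0.29 to 0.14 (24 h), -1.05 to 0.24 and -1.88 to 0.12 (48 h), and -1.12 to 0.076 for rno-miR-122-5p in liver against heart. Members passing the interaction at 48 h ranged from 0 to 1. Over time in heat-stressed kidney adjusted p ranged from 0.044 to 0.41, 0.048 to 0.83 and 0.030 to 0.21, and members passing from 0 to 5. The rat block changed no other call of the 3 main arms. Over all names, 2 passed for heat in heart at 48 h, against 10 with no fold cutoff, 5 with pooled controls, 1 with mature arms and 0 with only the compared groups. In heat-stressed kidney 5 passed over time, against 0 with median-ratio scaling, 1 with mature arms, 2 with voom and 43 without rat 307, and in control kidney 0, against 18 without rat 307. The interaction at 48 h called 0, against 3 with no cutoff and 1 with the block. Mature arms alone gave 40 to 66 names between organs, since fewer names were tested, and 34 passed, against 83, for kidney against heart at 48 h after heating with only the compared groups. Counts of 0 for heat became 1 in kidney at Tc,max with only the compared groups, in liver with no cutoff and in heart at Tc,max with pooled controls.

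The limits are those of depth and replication. A heart value of rno-miR-194-5p rests on 1 to 30 reads, kidney and heart values of miR-122 are often 0, and 4 heat-stressed kidneys at 48 h include rat 307. Which rats had injury is not given in the labels.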
